A study of Homo sapiens with 10 samples.

Results

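FKBP5 and the other chaperones and heat shock proteins that serve steroid receptors were followed in T47D breast cancer cells with and without progestin. The members were FKBP5, FKBP4, HSP90AB1, PTGES3, HSPA4, HSPA6, HSPB1, DNAJB1 and PPID. They are a list of names, drawn up with earlier results of these arrays known, and each was read through every probe set that carries its symbol alone. A probe set is a group of short oligonucleotides on the array that together report a transcript. This gave 14 probe sets for 8 of the 9 genes, out of 16376 probe sets in the table and 12547 with 1 gene symbol. HSPA4, an HSP70-related chaperone that helps HSP70 exchange its nucleotide, had no probe set among those used here.

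T47D is an established human luminal breast cancer line, and T47D-Y is a clone of it that has no progesterone receptor (PR). T47D-Y cells had been stably transfected with a vector for WT PR-A, the shorter PR isoform, or for PR-A K388R, in which the lysine that takes up SUMO is replaced by arginine. Total RNA was hybridized to 10 U133 Plus 2 arrays, 2 for each of 5 groups: PR-A K388R cells given 10 nM of the synthetic progestin R5020 for 24 h or ethanol vehicle, WT PR-A cells given the same R5020 or vehicle, and T47D-Y cells given vehicle. The sources used here do not say whether a transfected line was 1 clone or a pool, nor whether replicates were separate cultures. Every p below therefore reflects the spread of these arrays alone. T47D-Y cells given R5020 were not analysed here.

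A steroid receptor without hormone is held in a shape that can bind hormone by a chaperone cycle. HSP70 with its J-protein partner loads the receptor onto HSP90, p23 closes the complex, and an immunophilin such as FKBP51, FKBP52 or Cyp40 occupies the remaining co-chaperone position. FKBP51, the product of FKBP5, lowers the affinity of the receptor for hormone, and its gene is a classical target of progestins, glucocorticoids and androgens. Heat shock genes are driven by a different route, through heat shock factor bound to heat shock elements.

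Upstream sequences are shown to set the heat shock members beside FKBP5, since heat shock elements and progestin response elements are different motifs. The RefSeq promoter table (GRCh38.p14) held 13 windows of 250 bases before the start for 8 of the genes, HSPA4 included, and the windows were searched after the array values had been seen. Capitals mark the short heat shock element, GAANNTTC or TTCNNGAA, which reads the same on both strands. Where 3 units are joined (GAANNTTCNNGAA or TTCNNGAANNTTC), the capitals are a run of 13 bases that holds 2 overlapping short elements. The windows with an element, and both windows of FKBP5, were as follows.
HSPA6, chr1:161524290-161524539, plus strand: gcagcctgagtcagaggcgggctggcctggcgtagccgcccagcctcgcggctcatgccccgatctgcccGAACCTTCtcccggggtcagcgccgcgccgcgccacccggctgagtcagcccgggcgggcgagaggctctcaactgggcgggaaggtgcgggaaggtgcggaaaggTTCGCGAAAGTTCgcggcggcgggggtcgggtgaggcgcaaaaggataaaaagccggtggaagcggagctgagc
HSP90AB1, chr6:44247693-44247942, plus strand: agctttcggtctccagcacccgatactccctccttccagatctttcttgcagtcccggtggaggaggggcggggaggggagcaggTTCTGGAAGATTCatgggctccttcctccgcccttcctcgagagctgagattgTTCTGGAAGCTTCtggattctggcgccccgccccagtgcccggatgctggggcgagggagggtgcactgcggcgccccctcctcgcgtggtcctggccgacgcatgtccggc
HSPB1, chr7:76302423-76302672, plus strand: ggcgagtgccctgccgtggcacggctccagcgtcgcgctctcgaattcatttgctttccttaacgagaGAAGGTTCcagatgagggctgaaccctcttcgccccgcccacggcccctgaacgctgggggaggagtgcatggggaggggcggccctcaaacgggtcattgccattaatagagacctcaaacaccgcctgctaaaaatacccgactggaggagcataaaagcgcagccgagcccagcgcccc
DNAJB1, chr19:14518398-14518647, minus strand: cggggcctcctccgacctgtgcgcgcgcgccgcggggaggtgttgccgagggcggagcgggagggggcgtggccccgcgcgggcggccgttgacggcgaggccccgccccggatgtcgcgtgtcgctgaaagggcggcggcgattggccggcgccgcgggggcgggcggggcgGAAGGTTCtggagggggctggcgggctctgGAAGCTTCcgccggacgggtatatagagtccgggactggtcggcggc
FKBP5, chr6:35728584-35728833, minus strand: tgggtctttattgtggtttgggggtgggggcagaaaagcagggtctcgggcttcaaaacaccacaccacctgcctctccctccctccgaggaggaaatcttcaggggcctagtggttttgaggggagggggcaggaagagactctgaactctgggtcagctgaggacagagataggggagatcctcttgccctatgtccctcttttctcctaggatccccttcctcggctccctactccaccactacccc
FKBP5, chr6:35688916-35689165, minus strand: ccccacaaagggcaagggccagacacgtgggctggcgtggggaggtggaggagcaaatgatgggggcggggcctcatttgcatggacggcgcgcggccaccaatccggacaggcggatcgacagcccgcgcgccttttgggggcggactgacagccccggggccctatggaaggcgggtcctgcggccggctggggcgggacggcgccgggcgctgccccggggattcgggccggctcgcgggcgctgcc

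The short element was in 4 of the 13 windows, against 11.6% of 35116 promoter windows of the same length, and the joined form was in 2, against 0.441%. The joined form began 74 bases before the start of HSPA6, and 165 and 112 bases before 1 of the 3 starts of HSP90AB1. HSPA6 had another short element 180 bases before the start. HSPB1 had 1 short element, 182 bases before the start, and DNAJB1 had 2, at 77 and 47 bases before 1 of its 3 starts. Neither FKBP5 window held a heat shock element. The full progestin response element, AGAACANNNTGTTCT on either strand, was in none of the 13 windows and in 0.00285% of all windows. Its half-site, TGTTCT on either strand, was in the windows of HSP90AB1 and HSPA4 and in 12.4% of all windows. A match describes these letters only, and sequence farther away, including introns, was not searched.

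All values below are log2 signals as deposited, so that 1 unit is a 2-fold difference. Array medians lay between 4.59 and 4.69, and arrays of a group correlated at r = 0.996 to 0.997, against 0.977 to 0.993 between groups. Of 11 measured luminal markers, 10 were above the array median on all 10 arrays, and TFF1 was above it on 6. The mean over those 11 genes was 9.54 to 9.65 in R5020-treated PR-A K388R arrays, 9.73 to 9.85 with vehicle, 9.14 to 9.20 in R5020-treated WT PR-A arrays, 9.57 to 9.67 with vehicle and 9.99 to 10.06 in T47D-Y. The 1 measured basal marker, KRT5, was at 3.94 to 4.96 and above the array median on 2 arrays. The mean over 6 measured fibroblast markers was 4.58 to 5.11, with COL1A1, COL1A2 and DCN above the array median on all 10 arrays and 3 below it. COL1A1 differed by group, at 6.11 to 6.79 in R5020-treated PR-A K388R arrays, 7.49 to 7.62 with vehicle, 8.26 to 8.61 in R5020-treated WT PR-A arrays, 9.33 to 9.59 with vehicle and 8.53 to 8.74 in T47D-Y. The mean over 4 leukocyte markers was 3.74 to 3.95, with CD3E above the array median on all 10 arrays (5.20 to 5.77) and PTPRC and LYZ below it. Markers of other cell types passed the array median too, so that passing it does not identify the cells. The luminal mean was thus lowest in R5020-treated WT PR-A cells, where HSPA6 was highest, and the part of these markers in the results was not tested. PGR itself was not analysed here, so that these arrays give no reading of the receptor in each line. By Western blot, the study reported no PR in T47D-Y and similar PR levels in both PR-A lines without R5020.

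FKBP5 separated the treated from the untreated arrays more widely than any other member. Its probe set, 204560_at, read 9.66 and 9.62 in PR-A K388R cells with R5020, against 6.04 and 6.12 with vehicle. WT PR-A cells had 9.87 and 9.85 with R5020, against 6.27 and 6.37 with vehicle. PR-negative T47D-Y cells had 6.30 and 6.19. The 4 R5020-treated arrays were thus all above the 6 vehicle arrays, and the gap between these sets of arrays was many times the spread within any group. Over the 10 arrays the values of FKBP5 spanned 3.83, a wider range than that of 99.5% of all probe sets, whose median range was 0.53.

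**Figure D1:**
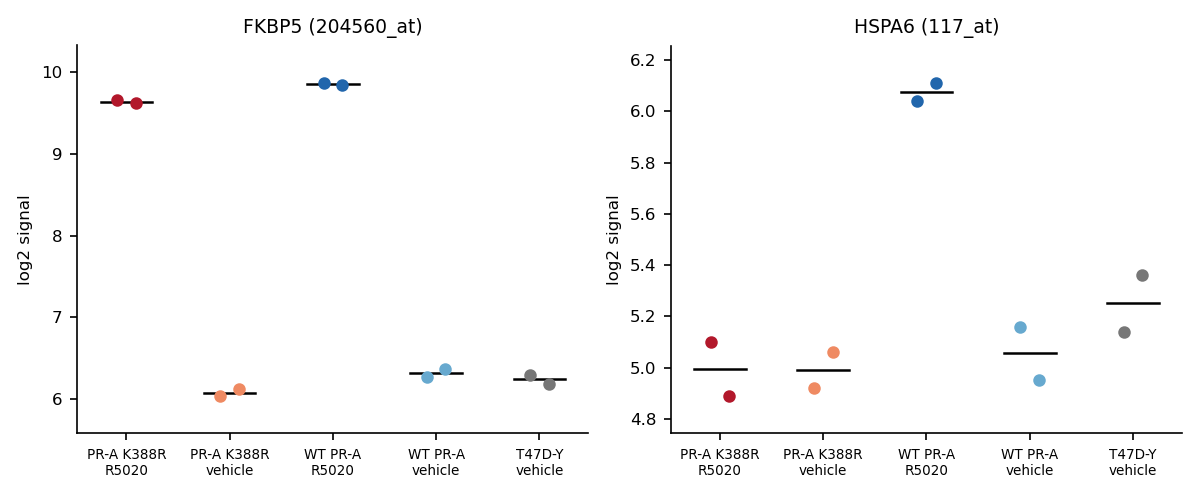
Log2 signal (y axis) of FKBP5 and HSPA6 on each of the 10 arrays, by group (x axis). Points are arrays and bars are means of 2. FKBP5 was at 9.62 to 9.87 on all 4 R5020 arrays, while HSPA6 was at 6.04 and 6.11 only on the R5020 arrays of WT PR-A cells and at 5.36 or less on the rest.

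With R5020, FKBP5 rose by 3.56 on the log2 scale in PR-A K388R cells (SE 0.11, limma adjusted p = 5.49e-07) and by 3.54 in WT PR-A cells (SE 0.11, adjusted p = 5.82e-07). The difference of the responses, PR-A K388R minus WT PR-A, was 0.02 (95% interval -0.32 to 0.37, adjusted p = 0.985). The levels themselves had an order: R5020-treated WT PR-A was highest, then R5020-treated PR-A K388R, then the 3 vehicle groups, with WT PR-A above T47D-Y and PR-A K388R lowest. Neighbours in that order did not pass the test, apart from the step between the R5020 and the vehicle groups, which was tested within each line. PR-A K388R cells were lower than WT PR-A cells by 0.22 with R5020 (95% interval of the difference -0.46 to 0.03, adjusted p = 0.24) and by 0.24 with vehicle (-0.48 to 0.01, adjusted p = 0.224). Without hormone, FKBP5 in WT PR-A cells differed from T47D-Y by 0.07 (adjusted p = 0.808), and in PR-A K388R cells by -0.16 (adjusted p = 0.44). No difference in FKBP5 between T47D-Y and either vehicle-treated PR-A line was detected.

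HSPA6 encodes an HSP70 protein that most cells make only under stress. It was called in 1 of the lines. With R5020, its probe set, 117_at, read 5.10 and 4.89 in PR-A K388R cells, against 4.92 and 5.06 with vehicle, so that these groups overlapped. In WT PR-A cells it read 6.04 and 6.11 with R5020, against 5.16 and 4.95 with vehicle. T47D-Y cells had 5.14 and 5.36. R5020-treated WT PR-A arrays were above all 8 other arrays, which stayed close to the array medians.

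In the WT PR-A line HSPA6 rose by 1.02 with R5020 (SE 0.14, 2.03-fold, limma adjusted p = 0.00131), a call lost with unmoderated variances (adjusted p = 0.0608). The change in PR-A K388R cells was 0.01 (95% interval -0.30 to 0.32, adjusted p = 0.99). The difference of the responses was -1.01 (SE 0.19, 95% interval -1.45 to -0.58, adjusted p = 0.0402). The call of the difference was lost with any 1 of the 10 arrays left out, at -1.15 to -0.88 and adjusted p = 0.0511 to 0.158, and with unmoderated variances (adjusted p = 0.251). The R5020-treated arrays compared directly gave -1.08 for PR-A K388R minus WT PR-A (SE 0.14, adjusted p = 0.000777), a comparison that shares arrays with the others. Vehicle-treated cells differed by -0.26 for PR-A K388R minus T47D-Y, by -0.19 for WT PR-A minus T47D-Y and by -0.07 for PR-A K388R minus WT PR-A, and none was called. HSPA7, a transcribed pseudogene that is a near copy of HSPA6, had no probe set of its own here. Whether the HSPA6 probe set also reads HSPA7 RNA was not tested.

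Across the set, R5020 raised 1 of 14 probe sets in the PR-A K388R line and 2 of 14 in the WT PR-A line. None fell in either line. A call needed both a 1.5-fold change and an adjusted p below 0.05. By that rule 1.01% of all probe sets were called higher and 0.391% lower for PR-A K388R, against 3.63% higher and 2.77% lower for WT PR-A. FKBP5 was the member called in both lines and HSPA6 the other in WT PR-A cells. The difference of the responses was called for 1 of 14 probe sets, HSPA6, against 0.953% of all probe sets lower in this comparison. Of the 12 probe sets of the 6 other measured genes, limma called 0 in either line. An unadjusted p under 0.05 was reached by 1 of these 12 in the PR-A K388R line and by 4 in the WT PR-A line, all upward, against 6.25% and 9.26% of all probe sets upward in the same lines, and with unmoderated variances 0 were called. Their changes ran between -0.14 and 0.30 (median 0.11) in the PR-A K388R line, where the median of all probe sets was 0.00. They ran between -0.20 and 0.58 (median 0.03) in the WT PR-A line, where that median was -0.01.

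**Figure D2:**
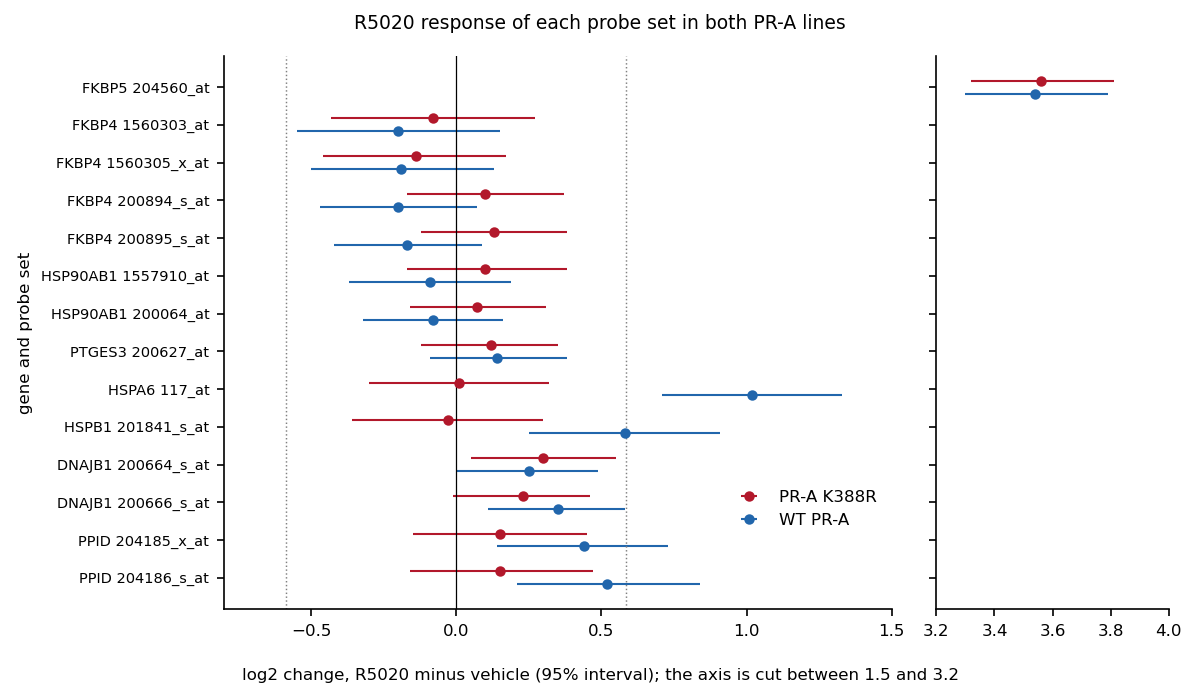
Log2 change with R5020 (x axis, R5020 minus vehicle) for each of the 14 probe sets (y axis) in PR-A K388R cells (red) and WT PR-A cells (blue), with 95% intervals from limma; dotted lines mark a 1.5-fold change and the axis is broken between 1.5 and 3.2. FKBP5 stood at 3.56 and 3.54, HSPA6 at 0.01 and 1.02, and the 12 others between -0.20 and 0.58.

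HSP90AB1 encodes the HSP90 isoform that cells make at all times. Both of its probe sets varied little. Probe set 200064_at lay between 12.64 and 12.78 on all 10 arrays, a range of 0.14 that only 0.269% of all probe sets undercut. Its change with R5020 was 0.07 in PR-A K388R cells (95% interval -0.16 to 0.31) and -0.08 in WT PR-A cells (-0.32 to 0.16). The second probe set, 1557910_at, lay between 12.06 and 12.38, a range of 0.31 that 12.3% of all probe sets undercut, with changes of 0.10 and -0.09 in the same lines. PTGES3, which encodes p23, also varied little. It lay between 12.70 and 12.89, a range of 0.18 that 1.13% of all probe sets undercut, with changes of 0.12 in PR-A K388R cells (-0.12 to 0.35) and 0.14 in WT PR-A cells (-0.09 to 0.38). For both genes these intervals leave out a 1.5-fold change in either direction.

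FKBP4 encodes FKBP52, the immunophilin that competes with FKBP51 for HSP90 and raises receptor activity. It did not pass the threshold in any comparison. Probe set 200894_s_at read 10.04 and 10.28 in PR-A K388R cells with R5020, against 10.07 and 10.05 with vehicle. WT PR-A cells had 10.18 and 10.13 with R5020, against 10.42 and 10.28 with vehicle. T47D-Y cells had 10.53 and 10.51, above all 8 arrays of the PR-A lines. With vehicle, PR-A K388R minus T47D-Y was -0.46 (adjusted p = 0.0621), and the second probe set, 200895_s_at, gave -0.41 (adjusted p = 0.0776). The changes with R5020 were 0.10 and 0.13 for these probe sets in the PR-A K388R line, and -0.20 and -0.17 in WT PR-A cells, at adjusted p of 0.454 or more. The other probe sets of FKBP4, 1560303_at and 1560305_x_at, did not show the gap to T47D-Y, with -0.04 each for PR-A K388R minus T47D-Y under vehicle.

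PPID encodes Cyp40, the cyclophilin found in receptor complexes. Its probe sets were highest in R5020-treated WT PR-A cells. Probe set 204186_s_at read 8.55 and 8.86 in PR-A K388R cells with R5020, against 8.54 and 8.57 with vehicle. In WT PR-A cells it read 9.40 and 9.46 with R5020, against 9.04 and 8.77 with vehicle. T47D-Y cells had 8.85 and 8.72. The R5020-treated WT PR-A arrays were thus above all others. The second probe set, 204185_x_at, read 8.93 and 9.24 in PR-A K388R cells with R5020 against 8.98 and 8.89 with vehicle, and 9.62 and 9.45 in WT PR-A cells with R5020 against 9.11 and 9.08 with vehicle. The change with R5020 in WT PR-A cells was 0.52 (95% interval 0.21 to 0.84, adjusted p = 0.0504) for 204186_s_at and 0.44 (0.14 to 0.73, adjusted p = 0.0842) for 204185_x_at, so that neither was called. In PR-A K388R cells it was 0.15 for each (adjusted p = 0.799 and 0.787).

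PPID was lower in R5020-treated PR-A K388R cells than in R5020-treated WT PR-A cells by 204186_s_at, at -0.73 (SE 0.14, adjusted p = 0.00765). The other probe set gave -0.45 (adjusted p = 0.0522), or -0.65 (adjusted p = 0.0246) without replicate 2 of R5020-treated PR-A K388R cells, which would make it a call. In this comparison 2 of the 14 probe sets were called lower, HSPA6 and this one, against 5.64% of all probe sets. The PPID call was lost without replicate 1 of R5020-treated PR-A K388R cells (-0.54, adjusted p = 0.0862), without replicate 2 of R5020-treated WT PR-A cells (adjusted p = 0.0569) and with unmoderated variances (adjusted p = 0.0844). With vehicle, 204186_s_at gave -0.35 for PR-A K388R minus WT PR-A (adjusted p = 0.158). For this probe set the responses differed by -0.37 (95% interval -0.82 to 0.07, adjusted p = 0.538).

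HSPB1 encodes HSP27, a small heat shock protein that holds unfolded proteins. Its probe set, 201841_s_at, read 12.99 and 12.77 in PR-A K388R cells with R5020, against 13.00 and 12.82 with vehicle. WT PR-A cells had 13.29 and 13.39 with R5020, against 12.79 and 12.72 with vehicle. T47D-Y cells had 13.25 and 13.61. The R5020-treated WT PR-A arrays were thus level with T47D-Y, and the other 3 groups were below both. With R5020 it changed by -0.03 in PR-A K388R cells (95% interval -0.36 to 0.30) and 0.58 in WT PR-A cells (0.25 to 0.91, adjusted p = 0.0392). The WT PR-A change was 1.497-fold, just short of the 1.5-fold threshold, and it was called when arrays were centred on their medians (0.59, adjusted p = 0.0369). The responses of the lines differed by -0.61 (-1.08 to -0.14, adjusted p = 0.251), which was not called.

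Without hormone, HSPB1 was lower in WT PR-A cells than in T47D-Y by 0.67 on the log2 scale (SE 0.15, adjusted p = 0.0183). It was the 1 member probe set of 14 called in this comparison, where 3.55% of all probe sets were called lower. The call was lost without WT PR-A vehicle replicate 1 (adjusted p = 0.0911) or replicate 2 (0.136), without T47D-Y replicate 2 (-0.45, adjusted p = 0.19) and with unmoderated variances (0.15). PR-A K388R minus T47D-Y was -0.52 (adjusted p = 0.087). In that comparison limma called 0 of 14 member probe sets, where 3.36% of all probe sets were called. At an unadjusted p under 0.05, 3 were lower and 0 higher, against 9.57% and 10.3% of all probe sets. With unmoderated variances 0 were called. Between the vehicle-treated PR-A lines 0 of 14 were called, against 7.43% of all probe sets, and 0 with unmoderated variances. At an unadjusted p under 0.05, 3 were lower and 1 higher, against 11.7% and 11.9% of all probe sets.

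DNAJB1 encodes HSP40, the J protein that works with HSP70 at the first step of receptor folding. Its probe sets moved little but in the same direction in both lines. Probe set 200666_s_at read 10.07 and 10.06 in PR-A K388R cells with R5020, against 9.87 and 9.81 with vehicle. WT PR-A cells had 9.95 and 9.90 with R5020, against 9.55 and 9.61 with vehicle. T47D-Y cells had 9.78 and 9.86. The changes with R5020 did not reach the thresholds. They were 0.23 in PR-A K388R cells (95% interval -0.01 to 0.46, adjusted p = 0.482) and 0.35 in WT PR-A cells (0.11 to 0.58, adjusted p = 0.0864). Probe set 200664_s_at gave 0.30 (0.05 to 0.55, adjusted p = 0.324) and 0.25 (0.00 to 0.49, adjusted p = 0.275) in the same lines.

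**Figure D3:**
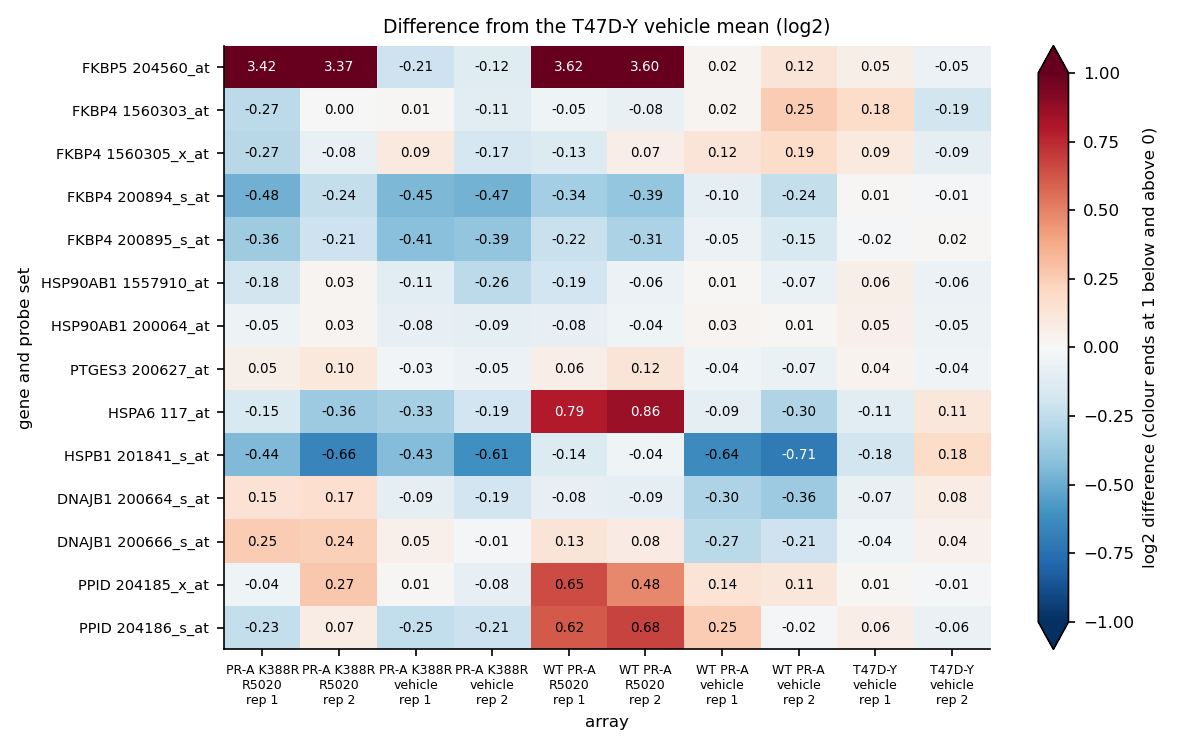
Each of the 14 probe sets (rows) on each of the 10 arrays (columns), as the log2 difference from the mean of the T47D-Y vehicle arrays; colours end at 1 below and above 0. FKBP5 was raised on all 4 R5020 arrays and HSPA6 on the 2 of WT PR-A cells, while the probe sets of HSP90AB1 and PTGES3 stayed near 0 throughout.

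The genes most like FKBP5 and HSPA6 were chosen by their correlation with each, so that their values are a description of that choice. By Pearson's r over the 10 arrays, which share 5 groups and are not independent, the genes most like FKBP5 were KLF9 (r = 0.9875), STAT5B (0.9818), HSD11B2 (0.9783), ATP8B3 (0.9778) and LLGL2 (0.9748). KLF9, a zinc finger transcription factor, changed by 2.78 with R5020 in PR-A K388R cells and by 3.10 in WT PR-A cells. STAT5B, a transcription factor of cytokine signalling, changed by 0.84 and 0.75 in the same lines. The genes most like HSPA6 were PIK3C2A (r = 0.9868), DGKH (0.976), SOX4 (0.971), AFF1 (0.9618) and FCGR3B (0.9605). PIK3C2A, a lipid kinase, changed by 0.17 in PR-A K388R cells and by 0.98 in WT PR-A cells. SOX4, a transcription factor, changed by 0.18 and 1.09 in the same lines. By Spearman's rho, 3 of the 5 genes most like HSPA6 were shared with this ranking and 0 of the 5 most like FKBP5, so that the order for FKBP5 depends on the measure.

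The families around these members were counted without the members themselves, and only listed genes with a probe set used here enter the counts. An unadjusted p under 0.05 was reached by 6.25% of all probe sets upward and 4.63% downward in the PR-A K388R line. In the WT PR-A line these shares were 9.26% and 9.33%. The shares of all probe sets called with R5020 are those given above for each line. Of 10 other probe sets of HSP90 and its co-chaperones (9 of 30 listed genes), limma called 0 with R5020 in either line. An unadjusted p under 0.05 was reached by 4 upward and 0 downward in the PR-A K388R line and by 2 upward and 1 downward in the WT PR-A line, and with unmoderated variances 0 were called in either. TOMM34, a co-chaperone of mitochondrial import, was lower without hormone than in T47D-Y in both PR-A lines. It had 9.63 and 9.51 in the PR-A K388R line and 9.25 and 9.30 in the WT PR-A line, against 10.26 and 10.29 in T47D-Y. The differences were -0.71 (adjusted p = 0.00639) and -1.0 (adjusted p = 0.000322), in that order of lines. The call of -0.71 was lost without replicate 2 of PR-A K388R vehicle, without either T47D-Y array and with unmoderated variances (adjusted p = 0.0569). With R5020, TOMM34 was higher in PR-A K388R cells than in WT PR-A cells by 0.63 (adjusted p = 0.00361), a call lost with median-centred arrays. FNIP1, an HSP90 co-chaperone read at a dim 2.94 to 3.72, was lower in the same comparison by 0.61 (adjusted p = 0.0131). The FNIP1 call was lost without either of 2 arrays and with unmoderated variances (adjusted p = 0.0863).

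Of 12 probe sets of the HSP70 family and its exchange factors (7 of 23 listed genes), R5020 raised 3 in the WT PR-A line, against 3.63% of all probe sets. All 3 belonged to HSPA9, the mitochondrial HSP70. In PR-A K388R cells limma called 0, with 0 at an unadjusted p under 0.05 and 0 with unmoderated variances. HSPA9 probe set 200690_at read 7.53 and 7.73 in PR-A K388R cells with R5020, against 7.59 and 7.59 with vehicle. The WT PR-A arrays read 9.39 and 9.08 with R5020, against 7.81 and 7.98 with vehicle, and T47D-Y had 7.26 and 7.19. As with HSPA6, the R5020-treated WT PR-A arrays stood above all others. The WT PR-A changes of the 3 probe sets were 1.34, 1.02 and 0.94 (adjusted p = 0.000286, 0.001 and 0.00141), of which the last 2 were lost with unmoderated variances (adjusted p = 0.0522 each). The difference of the responses was called for 2 of them, at -1.30 (adjusted p = 0.0143) and -0.91 (adjusted p = 0.0456). These calls were lost when any 1 of 4 and of 9 arrays was left out, and with unmoderated variances (adjusted p = 0.201 and 0.236). With R5020, 3 of the 12 probe sets were called lower in PR-A K388R cells than in WT PR-A cells, and 1 higher. Of all probe sets, 5.64% were called lower there. The 3 lower ones were those of HSPA9, at -1.6, -0.88 and -1.21 (adjusted p = 8.83e-05, 0.00193 and 0.000268). Without hormone, HSPA9 probe set 200690_at was higher in WT PR-A cells than in T47D-Y by 0.67 (adjusted p = 0.0134). That call was lost without any 1 of 3 arrays and with unmoderated variances (adjusted p = 0.118). BAG1 and BAG5, which release nucleotide from HSP70, were higher in vehicle-treated PR-A K388R cells than in vehicle-treated WT PR-A cells. The differences were 0.95 (adjusted p = 0.0119) and 0.68 (adjusted p = 0.00814), in that order of genes. These calls were lost without either of 2 arrays each, and with unmoderated variances (adjusted p = 0.154 and 0.0812). The other BAG5 probe set gave 0.54 in the same comparison (adjusted p = 0.0938) and was not called. Of the 12 probe sets, 2 were called there, against 7.43% of all probe sets in either direction.

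Of 34 probe sets of J proteins other than DNAJB1 (19 of 42 listed genes), R5020 raised 4 in the WT PR-A line and lowered none. The shares of all probe sets were 3.63% and 2.77%. In PR-A K388R cells limma called 0, with 3 higher and 1 lower at an unadjusted p under 0.05 and 0 with unmoderated variances. DNAJB4, a relative of DNAJB1, had the largest R5020 change in these lists other than that of FKBP5. Its probe set 203810_at read 5.27 and 5.72 in PR-A K388R cells with R5020, against 5.18 and 4.97 with vehicle. Those of WT PR-A cells read 8.55 and 8.38 with R5020, against 5.87 and 5.87 with vehicle, and T47D-Y had 5.27 and 5.20. The change was 2.60 in WT PR-A cells (adjusted p = 2.09e-05) and 0.42 in PR-A K388R cells (adjusted p = 0.335). The responses differed by -2.18 (SE 0.22, adjusted p = 0.00428), and it stayed called with each of the 10 arrays left out in turn but not with unmoderated variances (adjusted p = 0.168). The second probe set of DNAJB4 gave 2.47 and -2.10 for the WT PR-A change and the difference.

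DNAJB9, a J protein of the endoplasmic reticulum, rose in WT PR-A cells by 0.80 (adjusted p = 0.00306) and 0.72 (adjusted p = 0.0081) for 202843_at and 202842_s_at. Both calls were lost with unmoderated variances (adjusted p = 0.0603 and 0.101), and the second also without either of 2 arrays (adjusted p up to 0.104). The difference of the responses was not called for any of its 3 probe sets (adjusted p = 0.0516 to 0.0614). It was also higher in vehicle-treated WT PR-A cells than in T47D-Y, by 1.14, 0.86 and 0.79 for its 3 probe sets (adjusted p = 0.000367, 0.00151 and 0.00482), the last a call lost without either of 2 arrays and with unmoderated variances (adjusted p = 0.0811). DNAJC6, the auxilin that strips clathrin from vesicles, was higher there by 204720_s_at, at 1.10 (adjusted p = 0.000734). The other DNAJC6 probe set gave 0.11 in the same comparison (adjusted p = 0.795) and was not called. With R5020, 6 of the 34 J-protein probe sets were called lower in PR-A K388R cells than in WT PR-A cells, and 0 higher. Of all probe sets, 5.64% were called lower there. DNAJB4 gave -2.97 and -2.76 (adjusted p = 5.26e-06 and 1.35e-05). DNAJB9 gave -1.69, -1.21 and -1.21 (adjusted p = 3.27e-05, 0.000177 and 0.000366). DNAJC3, another J protein of the endoplasmic reticulum, gave -0.78 on the log2 scale (adjusted p = 0.00214).

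**Figure D4:**
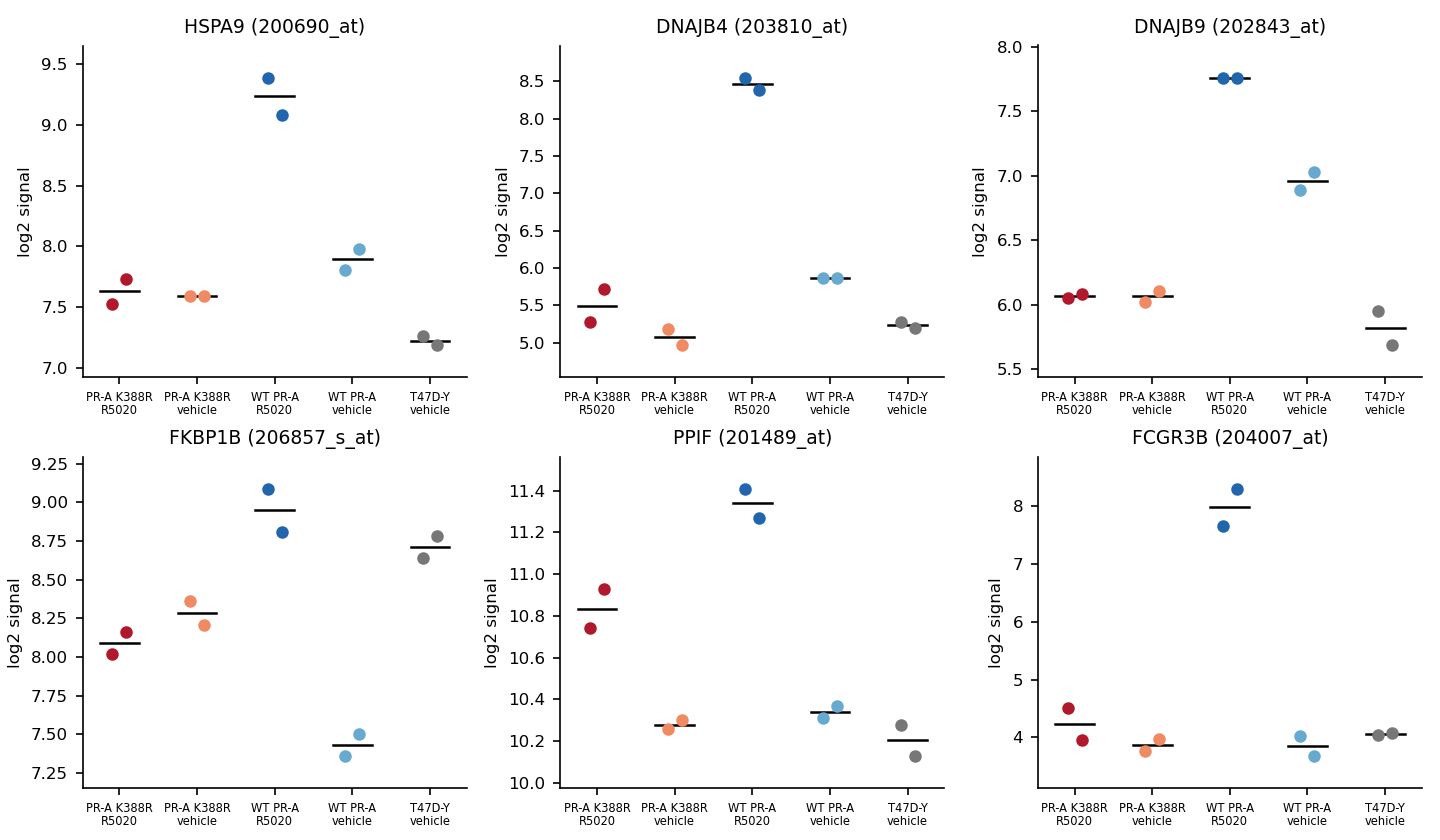
Log2 signal (y axis) of HSPA9, DNAJB4, DNAJB9, FKBP1B, PPIF and FCGR3B on each of the 10 arrays, by group (x axis). Points are arrays and bars are means of 2. In each panel the 2 R5020-treated WT PR-A arrays were highest, and PPIF was also raised by R5020 in PR-A K388R cells by 0.55 to 0.67 over its probe sets, of which the larger was called.

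Of 27 probe sets of other FK506-binding proteins and cyclophilins (15 of 32 listed genes), R5020 raised 1 in the PR-A K388R line and 3 in the WT PR-A line and lowered none. Of all probe sets, 1.01% and 3.63% were called higher in these lines. PPIF, the mitochondrial cyclophilin, was raised in both lines by 201490_s_at. It rose by 0.67 in PR-A K388R cells (adjusted p = 0.0335) and by 1.01 in WT PR-A cells (adjusted p = 0.000763). The call in PR-A K388R cells was lost without any 1 of 6 arrays and with unmoderated variances (adjusted p = 0.221). PPIF probe set 201489_at changed by 0.55 (adjusted p = 0.0688) and 1.00 (adjusted p = 0.000678) in the same lines. FKBP1B, which encodes the small FKBP12.6 that binds ryanodine receptors, followed another course. It read 8.02 and 8.16 in PR-A K388R cells with R5020, against 8.36 and 8.21 with vehicle. The WT PR-A values were 9.09 and 8.81 with R5020, against 7.36 and 7.50 with vehicle, while T47D-Y had 8.64 and 8.78. FKBP1B was thus lower in vehicle-treated WT PR-A cells than in T47D-Y, by 1.28 on the log2 scale (adjusted p = 0.000309), and R5020 raised it by 1.52 (adjusted p = 0.000128) to values above those of T47D-Y. The responses differed by -1.72 (SE 0.19, adjusted p = 0.00463), a call lost with unmoderated variances (adjusted p = 0.158).

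PPIC, a cyclophilin, and RANBP2, a nuclear pore protein with a cyclophilin domain, were called between lines and in neither R5020 response. PPIC was higher in vehicle-treated WT PR-A cells than in T47D-Y by 0.71 and 0.67 (adjusted p = 0.00556 and 0.00445), calls each lost without either of 2 arrays. The call of 0.71 was also lost with unmoderated variances (adjusted p = 0.0672). RANBP2 was lower in R5020-treated PR-A K388R cells than in R5020-treated WT PR-A cells, by 0.81 and 0.62 on the log2 scale (adjusted p = 0.00382 and 0.017). Both calls were lost with unmoderated variances, and the second also with quantile normalization and without either of 2 arrays (adjusted p up to 0.16). Of 17 probe sets of heat shock factors, small heat shock proteins and chaperonins (13 of 26 listed genes), limma called 0 with R5020 in either line. An unadjusted p under 0.05 was reached by 2 upward and 1 downward in the PR-A K388R line and by 2 upward and 2 downward in the WT PR-A line, and 0 were called with unmoderated variances. CCT6A, a subunit of the cytosolic chaperonin, was higher in vehicle-treated WT PR-A cells than in T47D-Y by 201326_at, at 0.60 (adjusted p = 0.018). This call was lost without any 1 of 3 arrays, with median-centred arrays and with unmoderated variances (adjusted p = 0.118). The other CCT6A probe set gave 0.21 in the same comparison (adjusted p = 0.472) and was not called.

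The receptors that use these chaperones were counted as well. Of 5 probe sets of NR3C1, NR3C2, ESR1 and ESR2 (4 of 6 listed genes), limma called 0 with R5020 in PR-A K388R cells, with 1 higher at an unadjusted p under 0.05 and 0 with unmoderated variances. In WT PR-A cells 1 rose, where 3.63% of all probe sets were called higher. It was NR3C2, the mineralocorticoid receptor, which changed by 0.82 (adjusted p = 0.0278), at 4.44 and 4.92 with R5020, against 3.77 and 3.96 with vehicle. That call was lost without any 1 of 3 arrays and with unmoderated variances (adjusted p = 0.238). ESR1, the estrogen receptor, was lower in vehicle-treated WT PR-A cells than in T47D-Y, at 8.34 and 8.52 against 9.74 and 10.11 (-1.50, adjusted p = 0.000728). It was higher in PR-A K388R cells than in WT PR-A cells by 1.13 with R5020 (adjusted p = 0.00301) and by 0.92 with vehicle (adjusted p = 0.0111), the second lost without either of 2 arrays. With unmoderated variances none of these ESR1 calls held (adjusted p = 0.0694, 0.0863 and 0.146). ESR1 also stood in the luminal marker list.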

How the data were processed

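RNA of 10 samples was measured on U133 Plus 2 arrays. The deposited values are log2 signals in 1 column per array, which the authors had normalized with Partek Genomics Suite 6.0. The normalization method and the background correction are not given in the sources used here. The labels and the study's methods name different culture media and RNA kits. Only those probe sets whose identifiers sort first are in the table. Genes were named from the platform annotation, in which 12547 probe sets had 1 symbol, 457 had several and 3372 were not listed. Groups were taken from the labels.

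A limma fit (version 3.58.1, R 4.3.3) over all 16376 probe sets had a mean for each of 5 groups and moderated variances. For each of 7 contrasts the Benjamini-Hochberg adjustment ran over the whole table. A call took a 1.5-fold change and an adjusted p below 0.05, as in the study's methods. The replicate number was a block in the fit, because it had been removed from the values before deposit: replicate differences summed to 0 over the groups (largest absolute sum 3e-04, against a median of 0.228 to 0.255 with the numbers of 1 group exchanged). A fit without the block counts 1 residual degree of freedom too many (5 in place of 4). Where the pairing comes from is not given in the sources used here, and the removal makes a check of paired deviations void. The fit was tested on simulated data. Intervals are 95% intervals of single probe sets, not adjusted for the number of tests.

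The members and the gene lists were chosen with earlier results of these data known. Genes outside the members were named when called in a comparison (up to 4 for each list and comparison with the smallest adjusted p), or when among the 5 with the highest Pearson's r with FKBP5 or HSPA6. Alternatives were no block, an intensity trend, unmoderated variances, median-centred arrays, quantile normalization, the 40% dimmest probe sets left out, a 2-fold threshold and each array left out in turn. Leaving out an array leaves 1 in its group, which is then assumed to vary like the others. Promoter windows came from RefSeq and tables were handled in Python 3.11.15. With 2 arrays a group, their number limits the precision.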

Additional observations from a re-analysis of the deposited data

Results flagged for a closer look

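HSPA6 differed between the PR-A lines in its response to R5020 by a test of the difference itself (limma adjusted p = 0.0402), but the call did not hold with any 1 of the 10 arrays left out (adjusted p = 0.0511 to 0.158) or with unmoderated variances (0.251). Subtracting the WT PR-A response left -1.01 on the log2 scale for PR-A K388R, with 0.01 in PR-A K388R cells and 1.02 in WT PR-A cells. It was the 1 member probe set called by that test. Whether the luminal marker mean, which was lowest in the same arrays, takes part in it was not tested.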

How the results depend on the processing

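FKBP5 was called in both PR-A lines under all alternatives run, at 3.52 to 3.61 in PR-A K388R cells and 3.48 to 3.60 in WT PR-A cells with each array left out in turn. The fit without the replicate block gave the same log2 changes and changed no call of a member. It ended no call of a named list gene, and whether it added calls among those genes was not tested. Its adjusted p-values were smaller, such as 0.0158 in place of 0.0402 for the HSPA6 difference of -1.01. With unmoderated variances, members raised in WT PR-A cells were 1 in place of 2, members lowered in the difference of the responses and in vehicle WT PR-A against T47D-Y were 0 in place of 1, and members lowered in R5020-treated PR-A K388R against WT PR-A were 1 in place of 2. A 2-fold threshold gave 0 and 1 for these last 2 counts. With each array left out in turn, the count for the difference was 0 throughout, that for vehicle WT PR-A against T47D-Y was 0 to 1 and that for R5020-treated PR-A K388R against WT PR-A was 1 to 3. Fewer degrees of freedom come with each array left out; the cause of the other losses was not tested. No called value changed sign. Neither quantile normalization nor leaving out the 40% dimmest probe sets changed a count of members. HSPA6 was read close to the array medians of 4.59 to 4.69 and 4 residual degrees of freedom limit all calls.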

Other observations

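The genes next to FKBP5 and HSPA6 were looked up after their values had been seen, as the 10 genes on each side in the RefSeq order of the chromosome. Of the 20 around FKBP5, 5 had probe sets used here, 7 in all. With R5020, 1 probe set was called, higher in PR-A K388R cells, where 1.01% of all probe sets were. It belonged to LOC285847, a long noncoding RNA 4 places away, which read 4.39 and 4.44 in PR-A K388R cells with R5020, against 3.68 and 3.86 with vehicle (0.65, limma adjusted p = 0.0338). In WT PR-A cells it read 4.09 and 3.91 with R5020, against 3.54 and 3.43 with vehicle (0.51, adjusted p = 0.0281, short of a 1.5-fold change). All these values were below the array medians, and the other 2 probe sets of LOC285847 were not called.

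Of the 20 genes around HSPA6, 2 had probe sets used here, 3 in all. R5020 raised 1 of these in WT PR-A cells, against 3.63% of all probe sets. FCGR3B, an Fc receptor of neutrophils that lies 10 places away, read 4.51 and 3.96 in PR-A K388R cells with R5020, against 3.77 and 3.98 with vehicle. In WT PR-A cells it read 7.66 and 8.31 with R5020, against 4.03 and 3.68 with vehicle, and T47D-Y had 4.04 and 4.07. Its change was 0.36 in PR-A K388R cells (adjusted p = 0.673) and 4.14 in WT PR-A cells (adjusted p = 1.73e-05). FCGR3A, 5 places from HSPA6, had no probe set used here, and whether the FCGR3B probe set also reads its RNA was not tested. FCGR2A, 3 places from HSPA6, was at 2.81 to 3.45 on all 10 arrays by both of its probe sets and was not called in either line. Of the leukocyte markers, PTPRC was at 2.58 to 2.73, LYZ at 2.86 to 3.24, CD14 at 4.01 to 4.64 and CD3E at 5.20 to 5.77.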
